A study of Homo sapiens with 8 samples.

Results

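The heat shock proteins and co-chaperones HSPA1A, HSPA1B, HSPA8, HSPA5, HSPH1, HSP90AA1, HSPD1, HSPB1, DNAJB1 and BAG3 were followed on the arrays. They were chosen by name from the known family and not by their values, though earlier results of these data were known. They are 10 of the 20296 genes with a named probe. RNA came from MCF10A p53+/+ cells, an immortalized and non-tumorigenic line of human breast epithelium, and from MCF10A p53-/- cells, a derivative that lacks p53. Cells were exposed for 2 h to 0.5 ug/ml of doxorubicin (adriamycin, ADR), an anthracycline that damages DNA through topoisomerase II, and collected at 12, 24 and 48 h, while untreated cells were collected at 0 h. The study's methods give a higher dose than the sample labels, which are followed here. One array was run for each of the 8 combinations of genotype and time, so no condition has a replicate, and each genotype is a single cell line.

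Heat shock proteins are molecular chaperones that bind unfolded or partly folded proteins. HSP70 proteins bind and release clients in a cycle driven by ATP, J domain proteins such as DNAJB1 start that cycle, and nucleotide exchange factors such as HSPH1 and BAG3 end it. HSP90 proteins finish the folding of kinases and receptors, HSPD1 folds proteins inside mitochondria, and small heat shock proteins such as HSPB1 hold unfolded proteins without ATP. Most of the family is induced through heat shock elements by the factor HSF1, whereas HSPA5, the HSP70 protein of the endoplasmic reticulum (also called BiP), is induced when unfolded proteins build up there.

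The promoters of the members carry these elements in different arrangements, and the stretches below are shown because they set the 2 stress-inducible HSP70 genes, 3 genes with a longer heat shock element and the endoplasmic reticulum member side by side. They are RefSeq sequences of the build GRCh38.p14, all upstream of the start of transcription and written 5' to 3' along the gene. The positions are chr6:31815423-31815522 on the plus strand for HSPA1A, chr6:31827619-31827718 on the plus strand for HSPA1B, chr11:123062157-123062206 on the minus strand for HSPA8, chr14:102087095-102087144 on the minus strand for HSP90AA1, chr2:197500041-197500090 on the minus strand for HSPD1 and chr9:125241384-125241453 on the minus strand for HSPA5. Capitals mark a match to GAANNTTC and to the TATA box TATAAA in HSPA1A and HSPA1B, to GAANNTTCNNGAA on either strand in HSPA8, HSP90AA1 and HSPD1, and to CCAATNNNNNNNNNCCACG, the ER stress element, in HSPA5.
HSPA1A: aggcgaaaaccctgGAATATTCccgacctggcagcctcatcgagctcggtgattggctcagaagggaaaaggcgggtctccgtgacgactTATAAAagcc
HSPA1B: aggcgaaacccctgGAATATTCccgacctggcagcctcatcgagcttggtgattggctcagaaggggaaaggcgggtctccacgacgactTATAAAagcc
HSPA8: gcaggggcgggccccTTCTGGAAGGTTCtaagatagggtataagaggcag
HSP90AA1: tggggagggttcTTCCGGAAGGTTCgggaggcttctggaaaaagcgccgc
HSPD1: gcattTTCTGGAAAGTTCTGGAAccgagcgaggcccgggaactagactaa
HSPA5: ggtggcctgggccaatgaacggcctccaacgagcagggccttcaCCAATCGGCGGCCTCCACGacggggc

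All 10 members had a promoter in the RefSeq table, which holds 300 bases for each of 35116 starts, and both strands were searched. A gene or member was counted if any of its listed starts had a match, so shares are also given over 27305 genes. The longer heat shock element GAANNTTCNNGAA was present in 0.49% of all promoters, in 0.61% of genes and in 3 members, HSPA8, HSP90AA1 and HSPD1. In HSPA8 it began 230 and 55 bases before the start, in HSP90AA1 88 bases before 1 of 2 listed starts, and in HSPD1 245 and 240 bases before 1 of 2 listed starts, where the matches overlap. The shorter element GAANNTTC, which lies within some of the longer matches, was present in 6.77% of promoters, in 8.21% of genes and in 7 members. In HSPA1A and HSPA1B it began 106 and 105 bases before the start. TATAAA was present in 11.5% of promoters, in 14.0% of genes and, among the members, in HSPA1A and HSPA1B. The ER stress element was present in 0.0769% of promoters, in 0.0916% of genes and, among the members, in HSPA5, 66 bases before its start. HSPA1A and HSPA1B had the same base at 235 of 249 aligned upstream positions (94.4%) and at 95 of the 100 positions printed for each. A match is a description of letters and was not tested as a binding site.

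Values are log2 levels of a probe relative to the 75th percentile of its array, so that 1 unit is a 2-fold difference and levels are compared only within a probe. The 75th percentile of the processed signal ran from 661 to 1199, and was lower on the treated p53+/+ arrays (661 to 818) than on the treated p53-/- arrays (1118.5 to 1199). Between 49.8% and 62.9% of probes were well above background. Of 10 spike-in probes 6 stood well above background on each of 7 arrays, whereas the p53+/+ 48 h array had 0, and values without it are given in the closing section and beside the HSPA1A test. The part of these differences in the results was not tested. CDKN1A, which encodes the p53-induced inhibitor p21, had -1.14 for the array labelled p53+/+ 0 h, then 2.54, 2.63 and 2.70 in treated cells, against -2.97, -0.96, -0.64 and -0.48 for p53-/-. The treated arrays of the genotypes were apart, while the array labelled p53+/+ 0 h lay within the range of the p53-/- arrays, so CDKN1A does not check its label. Directions drawn from that array are given by its label, and comparisons between treated arrays do not use it. Among 8 basal epithelial markers, TP63 was well above background on 3 arrays and the other 7 on every array, though CDH1 ran from -3.55 to 2.10. Of 10 markers of other cell types, PTPRC (-4.27 to -3.68) and CD14 (0.78 to 2.59) were above background on all 8 arrays, while ADIPOQ and PGR were on none. ESR1 was above background on 7 arrays, PECAM1 and COL1A1 on 5, VWF on 4, PDGFRA on 2 and CD3E on 1. Their part in the results was not tested.

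All 10 members stood well above background on every array, and none of them was saturated. Their levels moved over a span of 0.53 to 1.38 log2 units across the arrays, with a median of 0.82, whereas the median span of all probes measured on all 8 arrays was 1.07. A span of at least 1 was seen for 2 members, HSPA5 and HSPD1, and for 54.8% of those probes. The members are bright, each with a mean level above at least 77.9% of the probes above background on any array. The shares over all probes given here and below therefore include many dimmer probes, and the part of signal level in them was not tested. There were 3 members whose treated levels did not overlap between genotypes, HSPA1A and HSPA1B with higher levels in p53+/+ cells and HSPB1 with lower ones, while 41.4% of 28947 probes did not overlap either. As RNA was taken from whole cultures, a change in the share of cells and a change in RNA per cell cannot be told apart.

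**Figure D1:**
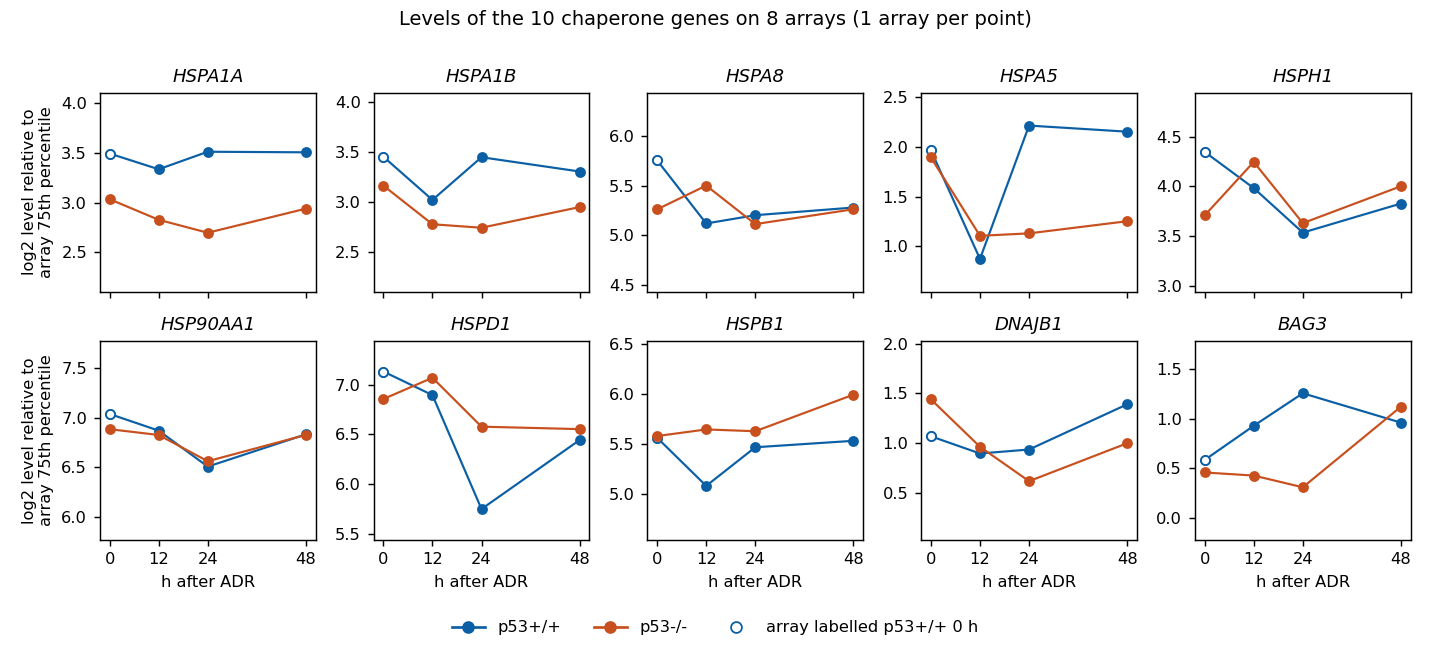
Log2 level of each of the 10 genes relative to the 75th percentile of the array (vertical axis, the same length in every panel) against hours after ADR, with 1 array per point, p53+/+ in blue, p53-/- in orange and the array labelled p53+/+ 0 h as an open circle. HSPA1A keeps its genotypes apart at every time, HSPA5 dips at 12 h in p53+/+ cells and returns, and HSPD1 dips at 24 h in p53+/+ cells.

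HSPA1A and HSPA1B encode the stress-inducible HSP70 protein from neighbouring genes. HSPA1A had a level of 3.49 for the array labelled p53+/+ 0 h, then 3.33, 3.51 and 3.51 in treated p53+/+ cells. Untreated p53-/- cells had 3.03, then 2.83, 2.70 and 2.94. The lowest p53+/+ value lay above the highest p53-/- value, with or without the 0 h arrays. HSPA1B read 3.45, 3.02, 3.45 and 3.31 over the p53+/+ time course, which starts from the array labelled p53+/+ 0 h, against 3.16, 2.78, 2.74 and 2.95 in p53-/- cells. Its treated p53+/+ values were higher, but the value of 3.02 at 12 h lay below that of untreated p53-/- cells. Neither gene reached a 2-fold change from 0 h at any time in either genotype. Since the files do not give probe sequences and the genes are near-identical copies, each probe may read both transcripts, and the pair is uncertain as 2 separate measurements.

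The HSPA1A probe was printed in 10 spots on each array, which gives its technical error. The technical SD of its log2 difference between arrays was 0.03, and over the members it ran from 0.029 to 0.086. HSPA1A was higher in treated p53+/+ than in treated p53-/- cells by 0.51, 0.81 and 0.57 with time, and the difference at 0 h, drawn from the array labelled p53+/+ 0 h, was 0.46. The technical error of spots is therefore far smaller than these differences, but it does not include the spread between arrays or between cultures. Without scaling of the arrays the differences after treatment were 0.06, 0.33 and -0.29, so the sign at 48 h rests on the scaling.

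**Figure D2:**
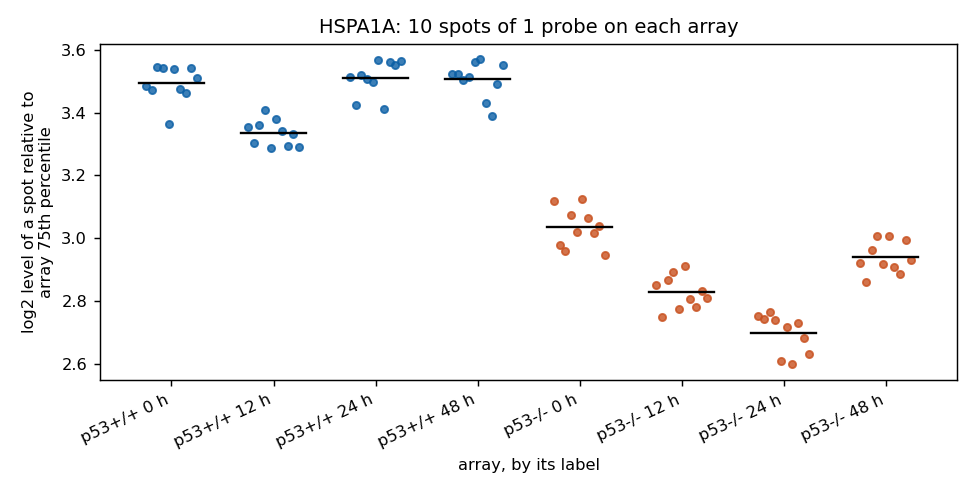
Log2 level of each spot of the HSPA1A probe relative to the 75th percentile of its array, for each array by its label, with black lines at the array means and p53+/+ in blue, p53-/- in orange. The array means of 3.33 to 3.51 in p53+/+ cells and 2.70 to 3.03 in p53-/- cells are apart by more than the scatter of spots.

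HSPA8 encodes HSC70, the HSP70 protein that cells make without stress. Its level was 5.75 for the array labelled p53+/+ 0 h, then 5.12, 5.20 and 5.28 in treated p53+/+ cells. The p53-/- time course was 5.26, 5.50, 5.11 and 5.26. The array labelled p53+/+ 0 h was the highest of the 8, and the treated levels of the genotypes overlapped. HSPH1, an HSP110 protein that exchanges the nucleotide of HSP70, had its highest value on the same array, at 4.35. Its p53+/+ values after treatment were 3.98, 3.54 and 3.83. The p53-/- values of HSPH1 were 3.71, 4.25, 3.63 and 4.001, with the highest at 12 h. Treated levels of HSPH1 overlapped as well, and a second probe was likewise lowest at 24 h among treated arrays of each genotype, with a mean treated difference of 0.05 against -0.18 for the brightest probe.

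HSPA5 was lowest on the 12 h array of p53+/+ cells. Its level was 1.97 for the array labelled p53+/+ 0 h, then 0.87, 2.21 and 2.15 as time went on. Untreated p53-/- cells had 1.89, then 1.11, 1.13 and 1.25. Both genotypes were lower at 12 h, and afterwards the p53+/+ arrays were back above the array labelled p53+/+ 0 h while the p53-/- arrays stayed below their untreated value. The log2 change at 12 h in p53+/+ cells was -1.09 from the array labelled p53+/+ 0 h and -1.02 from the untreated p53-/- array, a comparison in which 22.8% of probes changed 2-fold. Against the 12 h array of p53+/+ cells, HSPA5 rose by 1.34 up to 24 h, when 9.87% of probes changed 2-fold, and by 1.28 up to 48 h, when 15.4% did. These comparisons, which were chosen after the values were seen, do not use the 0 h arrays. The p53-/- changes from 0 h were -0.79, -0.76 and -0.64, short of 2-fold. The matched difference, p53+/+ minus p53-/-, was -0.23, then 1.08 and 0.90 with time, with a technical SD of about 0.07. Without scaling HSPA5 did not return above the array labelled p53+/+ 0 h, with changes of -0.07 at 24 h and -0.43 at 48 h, and the matched difference at 48 h was 0.04.

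HSP90AA1 encodes the inducible HSP90 protein of the cytosol. Its p53+/+ time course, which starts from the array labelled p53+/+ 0 h, was 7.04, 6.87, 6.51 and 6.83, against 6.88, 6.83, 6.56 and 6.83 in p53-/- cells. As scaled here the genotypes ran side by side, each lowest at 24 h. The matched differences at 12, 24 and 48 h were -0.26, -0.27 and -0.37 with quantile normalization, and -0.41, -0.54 and -0.85 without scaling. The other probes of the gene had their lowest value at 24 h too, and 1 of them differed between treated genotypes by -0.62 while the brightest differed by 0.00.

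HSPD1, the mitochondrial chaperonin HSP60, had the widest span of the 10. Its level was 7.13 for the array labelled p53+/+ 0 h, then 6.90, 5.75 and 6.44. The p53-/- time course of HSPD1 was 6.86, 7.07, 6.58 and 6.55. The p53+/+ array at 24 h lay below all others. Its log2 change was -1.38 from the array labelled p53+/+ 0 h, -1.11 from the untreated p53-/- array and -1.14 from the p53+/+ array at 12 h, the last of these chosen after the values were seen. Against the untreated p53-/- array 27.0% of probes changed 2-fold. At 24 h HSPD1 differed between genotypes by -0.83, short of 2-fold, and with quantile normalization by -1.06.

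HSPB1 encodes HSP27, a small heat shock protein abundant in epithelium. Its brightest probe, printed in 1 spot, gave 5.56 for the array labelled p53+/+ 0 h, then 5.08, 5.47 and 5.53. The p53-/- values were 5.58, 5.65, 5.63 and 5.99. All treated p53+/+ values lay below all p53-/- values. A second probe of the same transcript, printed in 2 spots, gave -0.66, -1.50, -1.83 and -2.10 over the p53+/+ labels, against -0.30, -1.23, -1.45 and -1.22 over the p53-/- labels. It was lower after treatment in both genotypes, by 0.84 to 1.45 log2 units in p53+/+ cells, from the array labelled p53+/+ 0 h, and by 0.92 to 1.15 in p53-/- cells. The probes thus disagreed on the change from 0 h, and both were lower in treated p53+/+ than in treated p53-/- cells, by 0.40 and 0.51 on average.

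**Figure D3:**
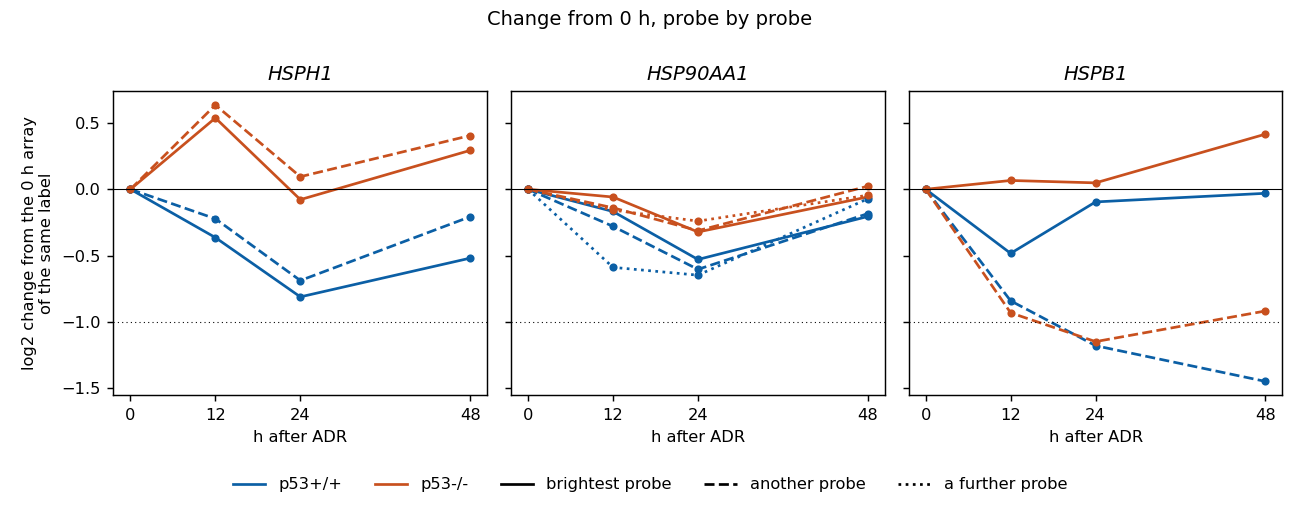
Log2 change from the 0 h array of the same label (vertical axis) against hours after ADR for every probe of HSPH1, HSP90AA1 and HSPB1, with p53+/+ in blue, p53-/- in orange, the brightest probe as a solid line, others broken, and a dotted horizontal line at a 2-fold fall. The HSPB1 probes part after 0 h, 1 reaching -1.45 at 48 h in p53+/+ cells while the brightest reads -0.03.

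DNAJB1 and BAG3 are co-chaperones of HSP70. DNAJB1, a J domain protein induced together with HSP70, gave 1.07 for the array labelled p53+/+ 0 h, then 0.90, 0.94 and 1.39. It gave 1.44, 0.96, 0.62 and 0.998 in p53-/- cells, so untreated p53-/- cells had the highest value and the treated levels overlapped. BAG3, which links HSP70 to HSPB8 and to selective autophagy, gave 0.59 for the array labelled p53+/+ 0 h, then 0.93, 1.26 and 0.96. The p53-/- values of BAG3 were 0.46, 0.43, 0.31 and 1.12, near its untreated value until 24 h and higher at 48 h. Its changes stayed under 2-fold, the largest being 0.67 at 24 h in p53+/+ cells and 0.66 at 48 h in p53-/- cells. Without scaling the latter was 1.11, past 2-fold.

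To follow the members after ADR, each treated array was set against the 0 h array of its label. No untreated array was run at the later times, so ADR and time in culture cannot be told apart in these changes. In p53+/+ cells 2 of 30 values passed 2-fold, and both were lower. HSPA5 fell at 12 h, when 9.98% of 28947 probes fell and 22.2% changed in either direction, and with quantile normalization its change of -0.997 was just short of 2-fold. HSPD1 fell at 24 h, when 13.8% of probes fell and 27.7% changed. At 48 h no member passed 2-fold while 29.0% of probes did. Among the p53-/- values none of 30 passed, against 9.91%, 13.8% and 20.3% of probes at 12, 24 and 48 h. These counts use the brightest probe of each gene. The second HSPB1 probe changed by -1.18 and -1.45 at 24 and 48 h in p53+/+ cells, and by -1.15 at 24 h in p53-/- cells. No member rose 2-fold at any time in either genotype as scaled, whereas without scaling BAG3 rose by 1.11 at 48 h in p53-/- cells. The median change of the members at 12, 24 and 48 h was -0.30, -0.11 and -0.09 in p53+/+ cells, from the array labelled p53+/+ 0 h, against 0.09, -0.04 and 0.20 over all probes. The p53-/- medians were -0.04, -0.30 and -0.08, against -0.06, -0.03 and 0.00. With 1 array per time these are values without a test.

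To ask whether p53 status went with the members' levels at the same time after ADR, p53+/+ and p53-/- arrays were compared pairwise. HSPA5 was called higher at 24 h in p53+/+ cells, when 11.9% of probes were higher by 2-fold and 24.9% differed. No member differed 2-fold at 12 h, when 20.6% of probes did, or at 48 h, when 29.8% did. At 0 h, drawn from the array labelled p53+/+ 0 h, none did either, against 10.1% of probes, and the widest difference was 0.64 for HSPH1. With median scaling the HSPA5 difference at 24 h was 0.99, without scaling it was 0.60, and neither is past 2-fold.

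The 6 treated arrays were then fitted with limma on genotype, with the time points standing in for replicates, so that the error is movement over time and not the spread between cultures. No member passed an adjusted p of 0.05, whereas 18.0% of 28947 probes did, and 1 member, HSPA1A, had an unadjusted p under 0.05. HSPA1A was higher in p53+/+ cells by 0.63 on the log2 scale (SE 0.17, 95% interval 0.21 to 1.05, limma adjusted p = 0.0514), and higher at 3 of 3 times. Its adjusted p over the alternatives ran from 0.0207 to 0.904. It passed with normexp background correction, with all probes of a gene averaged (adjusted p = 0.0398), with only probes above background on all 8 arrays (0.0264) and with no filter (0.0282), and it was farthest from passing without scaling, where the difference was 0.03. Without the p53+/+ 48 h array it was 0.60 (adjusted p = 0.0907). HSPA1B differed by 0.44 (95% interval -0.03 to 0.90, limma adjusted p = 0.166), higher at 3 of 3 times. HSPA5 differed by 0.58 with an interval of -0.32 to 1.48, and BAG3 by 0.43 with an interval of -0.21 to 1.06, each higher at 2 of 3 times. HSPB1 differed by -0.40 (-0.91 to 0.12) and HSPD1 by -0.37 (-1.16 to 0.42), each lower at 3 of 3 times. HSPB1 passed without scaling, at -0.995 (adjusted p = 0.0176), and with normexp, at -0.59 (0.0389). HSPH1, HSPA8 and DNAJB1 differed by -0.18, -0.09 and 0.21, and HSP90AA1 by 0.00 with an interval of -0.47 to 0.46. Without scaling the estimates of HSPA1B, HSPA5, DNAJB1 and BAG3 changed sign, while HSPA8 (-0.69) and HSPH1 (-0.78) passed. These intervals include 0 for all members but HSPA1A and leave room for differences near 2-fold for several, so they do not show that the genotypes are alike.

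**Figure D4:**
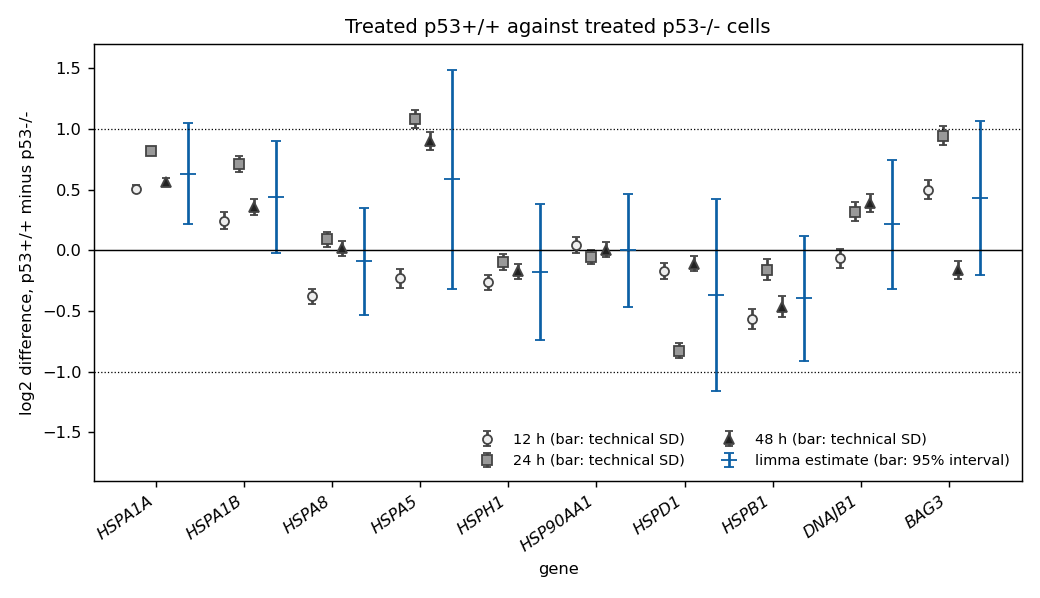
Log2 difference, p53+/+ minus p53-/-, of the treated cells at 3 times for each of the 10 genes, with bars of 1 technical SD, beside the limma estimate over the 6 treated arrays with its 95% interval in blue; dotted lines mark 2-fold. The interval of HSPA1A, 0.21 to 1.05, lies above 0, and HSPA5 at 24 h, 1.08, lies past 2-fold.

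The change with treatment was compared between genotypes by a limma interaction over all 8 arrays, which uses the array labelled p53+/+ 0 h. No member passed, with adjusted p-values from 0.434 to 0.890 and none with an unadjusted p under 0.05, while 1.69% of probes passed. The widest estimate was that of HSPH1, whose change was lower in p53+/+ than in p53-/- cells by 0.82 (95% interval of the difference -1.94 to 0.31). With 4 residual degrees of freedom the intervals of the members are wide.

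Across the 8 arrays HSPA1A and HSPA1B followed each other, with a Pearson correlation of 0.91, a description over points that share the scaling of each array. For the members with a span of at least 1, the genes with the most similar course were taken from 11818 other genes. HSPA5 was most like RMP64 (0.98) and FAM50A (0.96), and HSPD1 was most like RBIS (0.99) and EPS15L1 (0.98). RMP64 gave -0.42 for the array labelled p53+/+ 0 h, then -1.16, -0.06 and -0.20, and -0.46, -0.91, -0.98 and -1.03 in p53-/- cells. RBIS gave 3.20, 3.00, 2.34 and 2.76 over the p53+/+ labels, against 3.01, 3.22, 2.87 and 2.81 in p53-/- cells. That both dipped where the member dipped follows from their choice by likeness.

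The wider chaperone network was described with 9 lists of 82 genes, of which 80 had a named probe and 77 were above background on at least 1 array. In the limma fit of treated arrays 7 were higher and 4 lower in p53+/+ cells, 14.3% of the 77 against 18.0% of all probes. None passed the interaction. In the HSP70 and HSP110 family outside the members, 2 of 10 were higher and 2 lower, with a median of -0.35 against 0.09 over all probes. HSPA4L, an HSP110 protein and relative of HSPH1, had the widest difference of all list genes, 2.80 (SE 0.27, adjusted p = 0.00175). It gave -1.50 for the array labelled p53+/+ 0 h, then 1.79, 1.42 and 0.99, against -1.93, -1.13, -1.46 and -1.62 in p53-/- cells, so the treated groups lay more than 2 log2 units apart. HSPA2, the HSP70 protein best known from the testis, read -1.25, -1.05 and -2.67 in treated p53+/+ cells and -0.65, 0.26 and 0.38 in treated p53-/- cells, a difference of -1.65 that did not pass (adjusted p = 0.0647), but did with median scaling (0.0448), without scaling (0.0289) and with normexp (0.0192). Named after their values were seen, HSPA6 was higher by 0.85 (limma adjusted p = 0.0476) and HSPA13 and HSPA14 were lower by 0.76 (0.0487) and 0.71 (0.0308). All of these calls were lost with the time point as a block and without the p53+/+ 48 h array, and all were kept with normexp. HSPA6 was also lost with median scaling (0.0988), quantile normalization (0.0881) and without scaling (0.468), and HSPA13 with quantile normalization (0.0570). HSPA12A differed by 1.06 (adjusted p = 0.0568).

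Of the small heat shock proteins outside the members, 2 of 6 were higher and 1 lower. CRYAB, the alpha-B crystallin that also acts in the lens and in muscle, was higher by 1.84 (adjusted p = 0.0338). It gave -0.71 for the array labelled p53+/+ 0 h, then -1.16, -0.27 and -0.21. CRYAB fell in p53-/- cells from -0.48 to -1.59, -2.49 and -3.08, so the difference came with a fall in p53-/- cells. Its call was lost with the time point as a block (adjusted p = 0.0776), with median scaling (0.0526), without scaling (0.0593) and without the p53+/+ 48 h array (0.0876). HSPB8, the small heat shock protein that BAG3 binds, was named after its values were seen. It was higher by 2.09 (adjusted p = 0.0365) and rose past 2-fold at all times in both genotypes, from the array labelled p53+/+ 0 h in p53+/+ cells and from a 0 h array below background in p53-/- cells. HSPB3 passed as lower but was above background on 1 of 8 arrays, so no fold is given. CRYAA and HSPB9 differed by 0.23 and 0.43 and did not pass.

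Of the J domain proteins 1 of 18 was higher, with a median of 0.35 against 0.09 over all probes. List medians are as scaled here, and all are lower by the same amount without scaling. DNAJC5, the cysteine string protein of secretory vesicles, was higher by 1.43 (adjusted p = 0.0128). DNAJB2 and DNAJB12 differed by 0.80 and 0.61 and did not pass, and DNAJB2 rose past 2-fold from the array labelled p53+/+ 0 h at all times, by 1.35, 2.01 and 1.82. In p53-/- cells DNAJB2 changed by 0.38, 0.86 and 1.54, past 2-fold at 48 h. Of the nucleotide exchange and BAG proteins 1 of 7 was higher, and this was SIL1, the exchange factor of HSPA5, by 1.39 (adjusted p = 0.0135). SIL1 gave 0.17 for the array labelled p53+/+ 0 h, then 1.01, 1.10 and 0.99, against 0.39, 0.00, -0.24 and -0.81 in p53-/- cells. BAG1 and BAG2 differed by 0.64 and -0.50 and did not pass.

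Of the chaperonins 1 of 9 was lower, with a median of -0.17 against 0.09 over all probes. CCT5, a subunit of the cytosolic chaperonin TRiC, was lower by 1.28 (adjusted p = 0.0179). With normexp it differed by -0.61 (limma adjusted p = 0.0351). Its partner subunits TCP1 and CCT8 differed by -0.67 and -0.28 and did not pass. The CCT5 probe read -3.51, -3.51 and -3.56 in treated p53+/+ cells and -2.56, -2.42 and -1.76 in treated p53-/- cells. The CCT8 probe read 5.07, 4.34 and 4.58 in treated p53+/+ cells. Whether the CCT5 probe reports the main transcript was not tested. Neither the 3 HSP90 proteins nor the 10 HSP90 co-chaperones had a member that passed. TRAP1, the mitochondrial HSP90 protein, differed by -0.76, and HSP90AB1 and HSP90B1 by -0.09 and 0.16. PTGES3, STIP1 and CHORDC1, co-chaperones of HSP90, differed by -0.88, -0.55 and -0.53, and all 3 passed without scaling (adjusted p of 0.0176, 0.0276 and 0.0167), PTGES3 also with normexp (0.0257). None of 4 heat shock factors and regulators passed, with HSF2 at -0.51, HSF4 at 0.58 and HSBP1 at 0.26. HSF2 passed without scaling, at -1.11 (adjusted p = 0.00868), and with normexp (0.0355). Of 14 endoplasmic reticulum stress targets 1 was higher, CALR, the calcium-binding chaperone calreticulin, by 0.85 (adjusted p = 0.0182), while PDIA4 and DDIT3 differed by 0.54 and -0.59. CALR was not called with quantile normalization (adjusted p = 0.0677) or without scaling, where it differed by 0.25 (0.346). Among the list genes named here, HSP90B1, HSPB9, CRYAA, HSF4, HSBP1 and PDIA4 changed sign without scaling, and HSP90B1 did with quantile normalization. Signs of the list genes not named are not given, and small positive differences among them can change sign without scaling too. Of the 11 genes called, 6 were called without scaling (HSPA4L, HSPA13, HSPA14, HSPB3, DNAJC5 and CCT5). With the time point as a block 6 of these 11 were called, HSPA4L, HSPB8, DNAJC5, SIL1, CCT5 and CALR. The same 6 were kept without the p53+/+ 48 h array. Other list genes were gained, 24 without scaling, among them TCP1 and BAG2, and 14 with normexp, among them BAG1, DNAJB12, HSPA12A and HSPB9, so that 30 and 24 of the 77 were called there. Of the 11, 4 were kept without the 12 h arrays and 2, HSPA4L and SIL1, without the 48 h arrays. None was kept without the 24 h arrays, where the adjusted p of HSPA4L was 0.0727. Leaving out the 48 h arrays gained DNAJA4, above background on 1 of 8 arrays, so that 3 of the 77 were called. Leaving out the p53+/+ 48 h array gained HSPA12A (limma adjusted p = 0.0355), so that 7 were called.

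**Figure D5:**
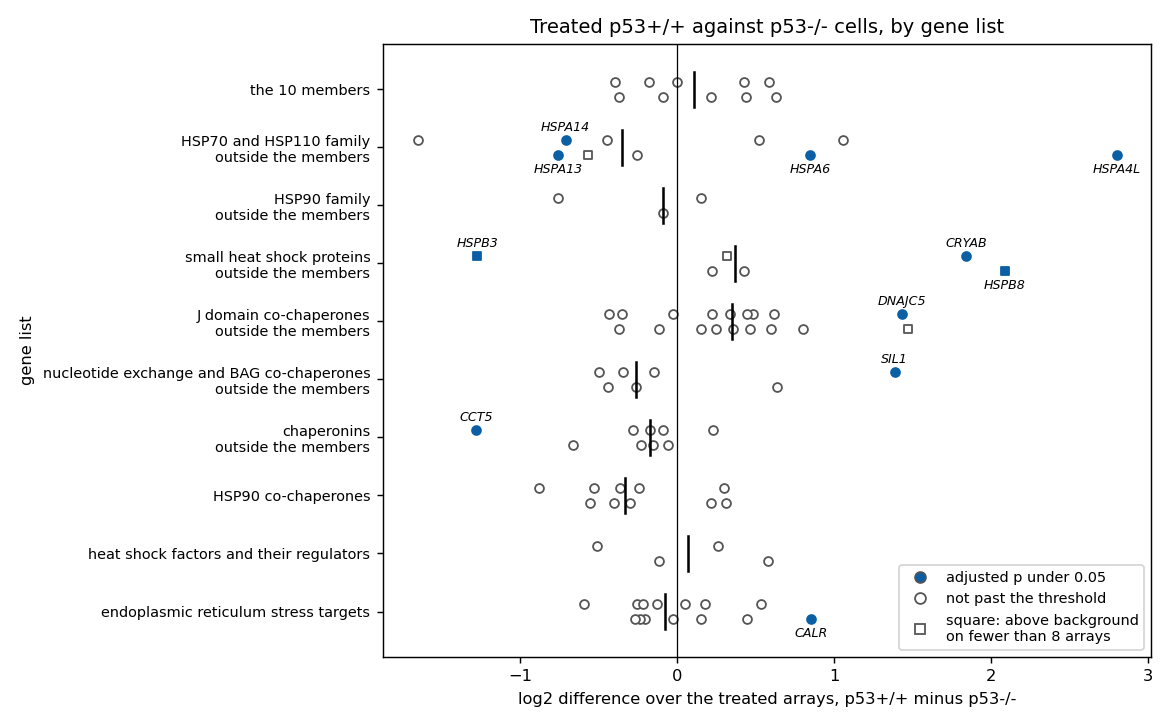
Limma estimate of the log2 difference between treated p53+/+ and p53-/- cells (horizontal axis) for the 10 members and for each gene list, with 1 symbol per gene, filled where the adjusted p was under 0.05, squares for genes above background on fewer than 8 arrays and black bars at the medians. The members lie between -0.40 and 0.63, while HSPA4L stands at 2.80.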

How the data were processed

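RNA from MCF10A cells was hybridised to 8 single-colour Agilent SurePrint G3 arrays, 1 per genotype and time, grouped by the sample labels. The intensity values deposited by the authors are the processed signal, which Agilent Feature Extraction 10.7.3.1 (named in the submitters' processing notes) had corrected for background. The array design uses the build hg19, so array features are given no coordinates. The deposited table of the series held the same numbers (503808 of 503808 values equal within 1e-05 of the value).

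Spots flagged as uneven or outlying were left out, which left 42391 of 42405 probes. The log2 signal minus the log2 of the array's 75th percentile was averaged for each probe over its spots. Probes were named by transcript accession through a RefSeq table of GRCh38.p14, which matched 27227 probes (64.2%) to 20296 genes, and each gene took its brightest probe. The 28947 probes that stood well above background on any array were tested with limma 3.58.1 (R 4.3.3) with Benjamini-Hochberg adjustment over all of them, and the script was tested on simulated data. Without a test, 2-fold or more was called a change. The technical SD came from 999 probes printed in 10 spots.

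The members and the lists were chosen with earlier results of these data known. List genes named were up to 3 per list, above background on all arrays, with the largest mean difference over the treated times, together with 2 genes most like each member with a span of at least 1, and CDKN1A as a check of the labels. Another gene planned for that check is not reported here. Alternatives were other scalings, normexp background correction, other filters and folds, averaging all probes of a gene, time as a block and leaving out a time point. Nothing gives separate cultures for the arrays, and their number limits the precision. The HCT116 arrays of the study were not analysed here.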

Additional observations from a re-analysis of the deposited data

Results flagged for a closer look

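HSPB1 moved in opposite directions in the genotypes at all 3 times. The log2 change of its brightest probe was -0.48, -0.10 and -0.03 at 12, 24 and 48 h in p53+/+ cells, from the array labelled p53+/+ 0 h, against 0.07, 0.05 and 0.42 in p53-/- cells. The mean of the differences was -0.38. With 1 array per condition the difference at single times was not tested, and the limma interaction over all times had an adjusted p of 0.702. The p53+/+ change at 48 h, and the p53-/- changes at 12 and 24 h, are within the technical SD of 0.08, and the second HSPB1 probe was lower after treatment in both genotypes.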

How the results depend on the processing

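The number of member values past 2-fold in p53+/+ cells, from the array labelled p53+/+ 0 h, was 2. It was 1 with quantile normalization, where HSPA5 was lost, 6 without scaling, 6 with a 1.5-fold rule, 0 with a 3-fold rule and 1 to 2 when a time point or the p53+/+ 48 h array was left out. In p53-/- cells it was 0, with 1 without scaling (BAG3 at 48 h, a rise) and 5 with a 1.5-fold rule. At matched treated times it was 1, with 0 under median scaling, 2 under quantile normalization, 5 without scaling, 6 with a 1.5-fold rule, 0 with a 3-fold rule and 0 to 1 when a time point or that array was left out. In the limma fit of treated arrays 0 members passed, with 3 without scaling (HSPA8, HSPH1 and HSPB1), 2 with normexp (HSPA1A and HSPB1), 1 each (HSPA1A) with all probes of a gene averaged, the filter on all 8 arrays and no filter, and 0 when a time point or that array was left out. The probes called numbered 5201, with 9393 without scaling, 9894 with normexp, 12536 with no filter and 292 to 4377 on leaving out a time point or that array, the lowest without the 24 h arrays. The interaction called 0 members under all alternatives run, and 488 probes, with 1296 without scaling, 1251 with normexp, 60 with the time point as a block and 0 to 427 on leaving out a time point or that array. Of probes called between treated genotypes 58.8% were higher in p53+/+ cells, with 45.7% under median scaling, 14.5% without scaling, 73.3% with normexp and 78.4% with no filter. Of interaction calls 55.7% were higher, with 14.0% without scaling, 66.4% with normexp and 76.7% with the block.

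Without scaling, the median change of all probes ran from -0.67 to 0.45 over the comparisons, against -0.06 to 0.20 as reported. The treated differences without scaling were -0.16 for HSPA1B, -0.0145 for HSPA5, -0.38 for DNAJB1 and -0.17 for BAG3, all reversed. The interaction without scaling was -0.63 for HSPA1A, -0.66 for HSPA1B, -0.29 for HSPA5, -0.22 for DNAJB1 and -0.50 for BAG3, and with median scaling -0.0056 for HSPA1B, all reversed. On leaving out a time point or that array the treated difference ran from -0.182 to 0.0534 for HSPA8, reversed without the 12 h arrays, and from -0.0492 to 0.0249 for HSP90AA1, reversed without the 24 h arrays. Leaving out the scaling, or using median scaling, moves all probes of an array by the same amount. In each fit it shifts the estimates of all members equally, so these reversals are not separate results for each gene. Why the arrays differ in signal, and the cause of the shifts on leaving out arrays, was not tested. Of the remaining values of single members, 140 moved, 22 of them with a change of sign, and 410 stayed within the spread or on their side of the threshold, 2 of them with a change of sign close to 0. Another 8 newly passed the threshold.

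No paired analysis was possible because each condition has 1 array, as far as pairing by replicate number goes. The genotypes do share their time points, and the fit with the time point as a block changed no call of a member, while list genes called fell from 11 to 6. No spot of any array was saturated, and dim probes such as HSPB3 limit what can be read from their folds.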
